A study of Mus musculus with 97 samples.

Results

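Neomycin injected into the peritoneum (Neomycin-IP) was compared with injected phosphate buffered saline (PBS-IP) across all genes of the mouse colon. The libraries were chosen by their labels, 6 of Neomycin-IP and 4 of PBS-IP, 10 of the 97 libraries in the series. All came from the whole colon of wild-type C57BL6/J mice of 8 to 12 weeks, which carried no transgene. A Neomycin-IP mouse received 2.5 mg of the antibiotic in 100 µl of PBS, dosed 2 times daily over 3 days with a last dose on day 4, and a PBS-IP mouse received 100 µl of PBS on the same schedule. Colons were collected 4 hours after that dose. Other groups served as reference where stated: neomycin or PBS given into a vein (IV, 5 libraries each) or by gavage (PO, 6 each), and ampicillin (6), metronidazole (4) or vancomycin (4) given IP at the same dose and schedule. Since no label states that each replicate is another mouse, a p-value here reflects the scatter among libraries, some of which may be technical.

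Neomycin is an aminoglycoside, an antibiotic that binds the bacterial ribosome. Type I and type III interferons are secreted when cells sense viral or other foreign nucleic acids. They act through transcription factors that bind a promoter sequence called the interferon-stimulated response element (ISRE) and switch on genes that degrade or hide from translation foreign RNA, tag proteins with ISG15, and load peptides onto MHC class I. Interferon gamma acts mainly through a second sequence, the gamma-activated site (GAS).

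Values are TPM, a transcript level corrected for length and scaled to one total per library, which keeps no record of sequencing depth. Genes that reached 1 TPM in 4 or more libraries of the series were tested, 17083 of 20457. A fold change is a difference on log2(TPM + 1), which understates the change of genes at low levels. "Rose" and "fell" are used for genes with a limma adjusted p under 0.05.

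The libraries were not uniform. PBS-IP replicate 3 and Neomycin-IP replicate 1 had low levels of posterior Hox genes, with a mean log2(TPM + 1) over 7 genes of 1.92 and 1.82, against 4.43 or more in the other 8 libraries. Hoxb13, a marker of the distal colon, was at 0.221 TPM in the first and 0.362 TPM in the second. Neomycin-IP replicate 5 was rich in smooth muscle, with a mean log2(TPM + 1) of 10.9 over 18 genes against 8.62 to 9.44 in the other 9. Neomycin-IP replicate 2 was rich in B cell transcripts, at 5.96 over 15 genes, where the highest of the other 9 stood at 3.59. Transcripts of the mitochondrial genome took 3.52% to 11.8% of TPM in Neomycin-IP and 7.77% to 25.1% in PBS-IP, with PBS-IP replicate 3 the highest. PBS-IP replicates 3 and 4 also stand among 12 columns placed out of order at the end of the deposited table, which hold no Neomycin-IP library. Epithelial markers were high throughout, with Krt8 between 1501 and 5245 TPM in the 10 libraries.

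Most of the genes that passed the test rose with Neomycin-IP, and most of those were interferon-stimulated genes. Of the 17083 genes tested, 98 rose (0.574%) and 5 fell (0.0293%), 103 in all (0.603%), while 993 had an unadjusted p under 0.05. On 1 of 11 interferon gene lists stood 64 of the 98 risers, with a median log2 fold change of 1.68 and a range of 0.74 to 3.97. The other 34 rose less, with a median of 0.79 and a range of 0.41 to 2.03. The median of all tested genes was 0.08. The 6 Neomycin-IP libraries all lay above the 4 PBS-IP libraries for 303 genes (1.77%), and all below for 33 (0.193%). The count of 103 genes depended on the fit and on the controls. Fitted on these 10 libraries alone, with no spread shared from other groups, 13 genes were called (12 higher, 1 lower). The 1 lower gene stands on the circadian clock list described below. Of the 64 interferon-list risers 10 were called in that fit, among them Ifi44, Ifi27l2a, Ifit3b, Irgm2, Xaf1 and Gbp3, while Oas2, Isg15 and every gene of the OAS, MHC class I, sensor and receptor lists were not. With array weights, which give unusual libraries less weight, 782 rose and 358 fell, and 659 of those risers stood on no interferon list. The count was 67 without PBS-IP replicate 1, 53 without replicate 2, 51 without replicate 4 and 116 without replicate 3. After quantile normalization 60 rose and 11 fell, in place of 98 and 5.

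**Figure D1:**
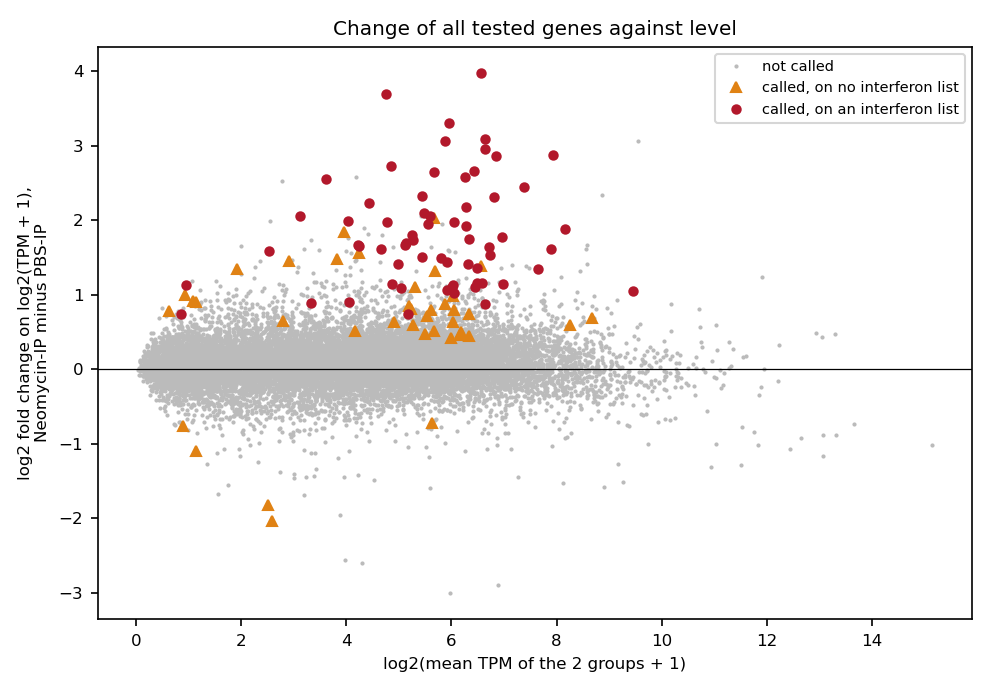
Each point is 1 of 17083 genes, with log2(mean TPM + 1) over both groups on the horizontal axis and the log2 fold change of Neomycin-IP over PBS-IP on the vertical axis. The 64 genes that rose and stand on an interferon list (circles) fill the upper part between 0.74 and 3.97, and the other called genes (triangles) lie mostly nearer to 0.

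The genes that rose most were antiviral. Oas2, which makes 2'-5' oligoadenylates when it binds double-stranded RNA, stood at 158, 269, 168, 200, 72.4 and 152 TPM in Neomycin-IP replicates 1 to 6, against 8.57, 3.74, 57.3 and 3.00 TPM in PBS-IP replicates 1 to 4. All 6 treated libraries exceeded all 4 controls, and PBS-IP replicate 3 was far above the other 3 controls. Its log2 difference was 3.97 (SE 0.65, limma adjusted p = 3.14e-05). Ifi44, an interferon-induced gene, was at 59.7, 71.8, 56.8, 44.8, 24.8 and 34.3 TPM against 2.51, 1.94, 6.20 and 1.32 TPM. Its groups were well apart, and the log2 difference was 3.70 (SE 0.45, limma adjusted p = 1.07e-08). Ifi27l2a, another interferon-induced gene, was at 55.3, 148, 157, 179, 53.3 and 78.8 TPM against 6.74, 10.2, 10.2 and 10.2 TPM, and here PBS-IP replicate 3 did not stand out. It rose by 3.30 (SE 0.34, limma adjusted p = 6.85e-11).

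Isg15 encodes the ubiquitin-like protein that is attached to other proteins after interferon. It was at 181, 326, 260, 210, 61.3 and 161 TPM against 21.4, 16.4, 58.7 and 15 TPM, so the lowest treated library, the muscle-rich replicate 5, barely exceeded the highest control. Isg15 rose by 2.86 (SE 0.58, limma adjusted p = 0.00222). Rsad2, which encodes the antiviral enzyme viperin, rose by 2.66 from a mean of 26.6 ± 25.7 TPM (SD, n = 4) to 144 ± 62.6 TPM (n = 6). Oasl2, an OAS-like protein, rose by 2.87 from 75.2 ± 79.7 to 409 ± 125 TPM. For Oas3, Apol9a and Apol9b the groups overlapped: PBS-IP replicate 3 (101, 93.0 and 48.7 TPM) lay above Neomycin-IP replicate 5 (64.4, 79.1 and 38.4 TPM). Oas3 was not called when any of 7 libraries was left out (all except Neomycin-IP replicates 5 and 6 and PBS-IP replicate 3), and Apol9a was not called without PBS-IP replicate 2 or 4. Apol9a with Apol9b and Ifit3 with Ifit3b are near-identical pairs whose reads the quantification could have divided, so their separate values are uncertain.

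**Figure D2:**
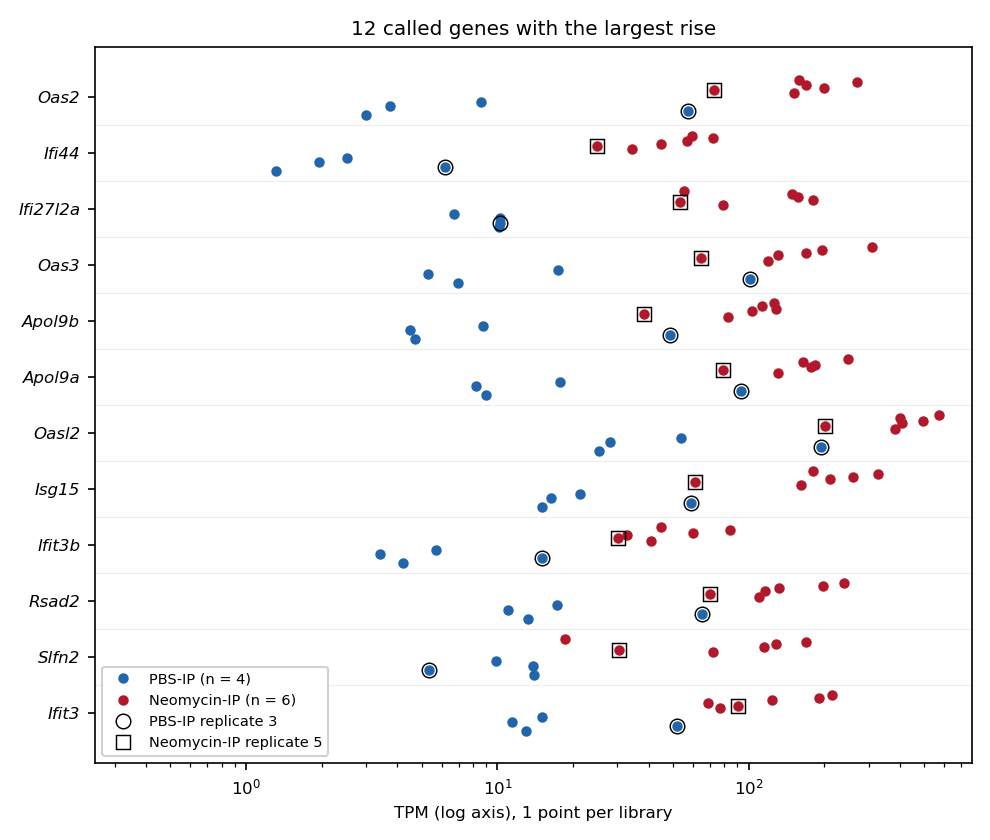
TPM on a log axis, 1 point per library, for the 12 named genes with the largest rise, with PBS-IP replicate 3 circled and Neomycin-IP replicate 5 boxed. For Oas2 the circled control (57.3 TPM) lies near the boxed treated library (72.4 TPM), while the other 3 controls lie at 8.57 TPM or less.

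Promoters of 4 risers are printed to show where the ISRE core lay in 3 interferon-list genes, beside 1 riser on no interferon list. Each is the 200 bases before the start site in RefSeq's annotation of GRCm38.p6, written 5′ to 3′ on the strand of the gene, with matches to the ISRE core in capitals (GAAA, any 2 bases, then GAAA again, on either strand, overlapping matches allowed). Isg15 lies at chr4:156200819-156201018 on the minus strand, Ifit3 at chr19:34583329-34583528, Irgm2 at chr11:58214777-58214976 and Cmtr1 at chr17:29660395-29660594, the last 3 on the plus strand.
Isg15: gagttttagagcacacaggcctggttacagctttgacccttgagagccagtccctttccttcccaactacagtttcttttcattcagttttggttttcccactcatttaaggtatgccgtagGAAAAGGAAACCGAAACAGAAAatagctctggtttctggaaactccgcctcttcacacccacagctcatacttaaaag
Ifit3: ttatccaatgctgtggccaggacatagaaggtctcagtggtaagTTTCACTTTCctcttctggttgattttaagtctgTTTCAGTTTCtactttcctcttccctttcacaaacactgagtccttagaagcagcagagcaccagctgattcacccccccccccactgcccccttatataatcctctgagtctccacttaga
Irgm2: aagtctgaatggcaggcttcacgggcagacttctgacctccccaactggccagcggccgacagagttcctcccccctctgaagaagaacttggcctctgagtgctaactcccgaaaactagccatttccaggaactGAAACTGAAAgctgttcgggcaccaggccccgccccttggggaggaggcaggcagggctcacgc
Cmtr1: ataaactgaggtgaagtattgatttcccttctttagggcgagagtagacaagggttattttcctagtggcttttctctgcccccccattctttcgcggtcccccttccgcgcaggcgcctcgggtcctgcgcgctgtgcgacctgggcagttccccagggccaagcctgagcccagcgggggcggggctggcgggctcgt

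Isg15 held 3 overlapping matches, Ifit3 held 2 and Irgm2 held 1, while Cmtr1, on no interferon list, held none in this window. The first match began 78 bases before the start site in Isg15, 156 in Ifit3 and 64 in Irgm2. Over windows from 250 bases before to 50 after a start site, an ISRE core stood in 27 of the 50 interferon-list risers with a window (54%), in 1 of 25 other risers (4%, Sh3bp5l) and in 40 of 111 interferon-list genes that were not called (36%). The share over 12274 tested genes with a window was 3.83%, and over all 32851 windows 3.44%. The GAS letters TTCNNNGAA, which read the same on both strands, stood in 10 of the 50 interferon-list risers (20%), in 0 of the 25 others and in 8.35% of the tested genes. These shares are counts with no test between the sets, and a match describes the letters and is not a measured binding site. Cmtr1 and the other risers are set apart only by absence from the interferon lists. Whether interferon induces them was not tested.

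The lists were compared by their counts, against the 0.574% of all genes that rose and their median of 0.08. Of the 205 interferon-list genes tested, 64 rose, 0 fell and 141 were not called, and 196 had a fold change above 0. The median over all 205 was 0.85. Among the 16878 genes on no interferon list 39 were called in either direction. The number of risers on an interferon list was 39 without PBS-IP replicate 4, 40 without PBS-IP replicate 2 and 74 without PBS-IP replicate 3.

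The RNA-binding IFIT proteins and the OAS enzymes had the highest list medians. Of 6 IFIT genes 4 rose (Ifit3b, Ifit3, Ifit1 and Ifit2), and the list median was 2.09. Ifit2 lost its call without Neomycin-IP replicate 1 or 2 or PBS-IP replicate 1, 2 or 4. Ifit1, which binds RNA with a foreign cap, rose by 2.44, from 68.3 ± 81.4 TPM (SD, n = 4) to 261 ± 108 TPM (n = 6). PBS-IP replicate 3 stood at 190 TPM, inside the treated range of 163 to 424 TPM, and the call was lost without PBS-IP replicate 1, 2 or 4. Of 11 OAS-list genes 7 rose, with a median of 1.64. The OAS count was 4 without any 1 of Neomycin-IP replicates 1 to 4 or PBS-IP replicate 1 or 2, and 3 without PBS-IP replicate 4. The IFIT count was 2 without PBS-IP replicate 1, 2 or 4.

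Among 65 antiviral effectors 28 rose and the median was 1.10, with 18, 15 and 16 risers when PBS-IP replicate 1, 2 or 4 was left out. They included Bst2, also called tetherin, which holds budding virions on the cell and rose by 1.98, and Xaf1, which rose by 1.80. Slfn4, at 1306 ± 735 against 191 ± 203 TPM, had a fold change of 3.07 but a limma adjusted p of 0.101. Of 16 genes for ISG15 conjugation and interferon-linked ubiquitin ligases 8 rose, with a median of 1.15, and 5 without PBS-IP replicate 4. Usp18, the protease that removes ISG15 and dampens receptor signalling, rose by 2.23, from 7.12 ± 5.96 to 34.2 ± 16.1 TPM. Rnf213, a very large ubiquitin ligase, rose by 1.88.

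Few genes of the signalling chain were called. Of 19 receptor, STAT and IRF genes 2 rose, Stat2 among them, and the list median was 0.25, with 1 riser without PBS-IP replicate 2 or 4 and 4 without replicate 3. Stat2 rose by 1.41, with PBS-IP replicate 3 at 94.6 TPM inside the treated range, and lost its call without PBS-IP replicate 2 or 4. Irf7, the factor that amplifies interferon production, was at 708 ± 288 against 225 ± 300 TPM and was not called (fold change 2.33, limma adjusted p = 0.214), and PBS-IP replicate 3 reached 675 TPM where the other 3 controls were at 58.1 to 93.5 TPM.

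Of 25 genes listed under nucleic acid sensing 4 rose, Dhx58, Nlrc5, Adar and Trex1, with a list median of 0.68. Not every member of that list is itself a sensor. Adar lost its call without PBS-IP replicate 2 or 4. Dhx58 encodes the RNA sensor LGP2 and rose by 2.32, whereas Ifih1, which encodes the related sensor MDA5, was at 117 ± 39.8 against 63.9 ± 12.0 TPM and was not called. Of 21 interferon ligand genes only 2 were among the 20457 genes with values used here, so no level is given for the rest. Both were at low levels and neither passed the filter: Ifng reached 0.222 TPM at most over the 10 libraries and Ifnz 0.132 TPM.

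Genes that are also induced by interferon gamma were represented. Of 10 immunity-related GTPases, which attack the membranes around intracellular parasites, 4 rose and the median was 1.05. Irgm2 was at 99.6, 101, 79.8, 79.3, 56.6 and 74 TPM against 27.5, 27.4, 32.6 and 24.3 TPM, and it had little spread among controls. It rose by 1.5 (SE 0.21, limma adjusted p = 5.55e-07). Of 10 guanylate binding proteins Gbp3, Gbp6 and Gbp7 rose, with a list median of 0.73. Of 25 genes for MHC class I and the immunoproteasome Tap1 (1.75), H2-T24 (1.59), B2m (1.05) and Tap2 (1.02) rose, with a median of 0.81. Without PBS-IP replicate 2 the count was 2. B2m was not called without Neomycin-IP replicate 1, 3 or 4 or PBS-IP replicate 1, 2 or 4. H2-K1, the class I heavy chain, was at 2167 ± 632 against 1184 ± 87.0 TPM and was not called. Of 12 interferon-inducible cell death genes 1 rose, with a median of 0.29, and 0 without PBS-IP replicate 4. None of 7 interferon-induced chemokine genes was called. Cxcl10 nevertheless was higher in every treated library, at 7.75 to 24.5 TPM against 2.95 to 6.48 TPM, with a fold change of 1.59 and a limma adjusted p of 0.106.

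**Figure D3:**
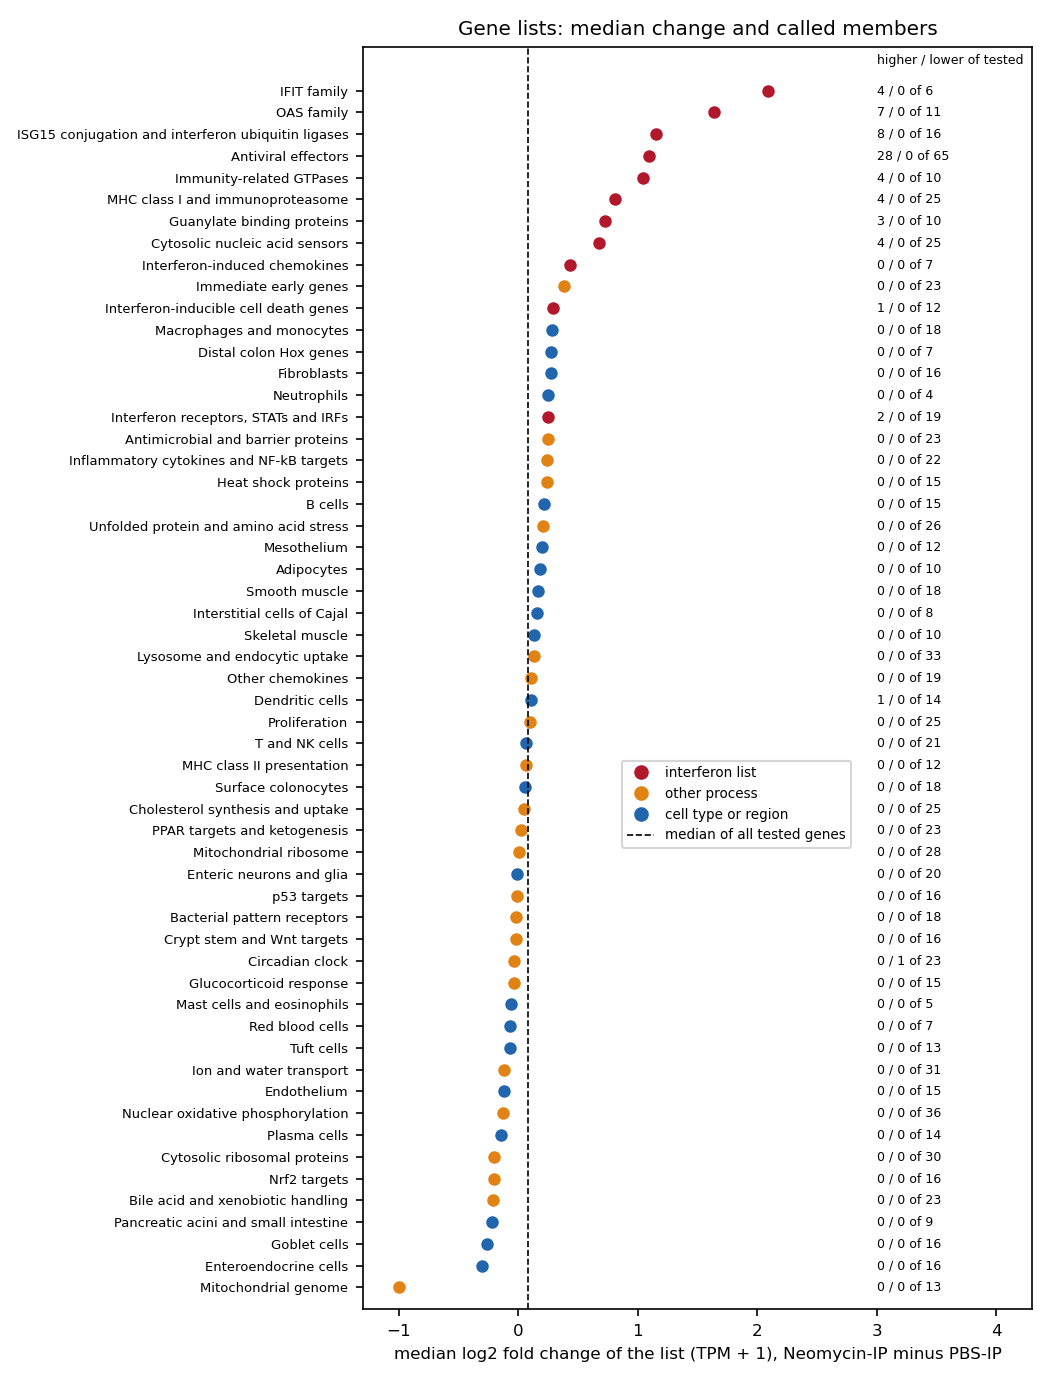
The median log2 fold change of each of 56 gene lists with a tested member, coloured by kind, with the numbers that rose and fell of those tested at the right. The IFIT list is at the top (2.09) and the transcripts of the mitochondrial genome are at the bottom (-1.0), and the dashed line marks the median of all tested genes (0.08).

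Outside the interferon lists, 45 lists of other processes, cell types and regions held 2 called genes between them, Bst2, which is also an interferon gene on the dendritic cell list, and Coq10b on the circadian clock list. Immediate early genes had the highest median of the 45, at 0.39, and 0.34 to 0.43 with 1 library left out. Of 23 tested, 0 were called and 20 had a fold change above 0, against 10891 of all 17083. Their summed transcripts were at 2429 to 3481 TPM in Neomycin-IP and 1998 to 2252 TPM in PBS-IP. Medians for B cells (0.22), macrophages (0.28), T and NK cells (0.06), smooth muscle (0.16), goblet cells (-0.26) and enteroendocrine cells (-0.31) were within 0.4 of that of all genes. These medians moved with single libraries. The B cell median was -0.45 without Neomycin-IP replicate 2, -0.07 and -0.11 without PBS-IP replicate 1 or 2, and up to 0.57 with another library left out. The smooth muscle median was -0.14 without the muscle-rich Neomycin-IP replicate 5, and the goblet cell median ranged from -0.75 to -0.07. In bulk tissue, fewer cells of a type and less RNA per cell cannot be told apart. The 13 protein-coding transcripts of the mitochondrial genome were all lower, with a median of -1.0, but none was called. Without PBS-IP replicate 3, whose mitochondrial share was the highest of the 4 controls, the median was -0.67.

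Genes on no interferon list are set apart only by absence from the 11 lists, and whether interferon induces them was not tested. The 34 risers among them were mostly moderate. Of these, 28 have names and 6 are predicted models. In 27 of the 34 the 2 groups did not overlap, with Neomycin-IP the higher. The same held for 42 of the 64 interferon-list risers and 303 of all 17083 tested genes (1.77%). The 34 were chosen by their rise in these same libraries, so their count is a description and not a test. The largest were Rbm27, an RNA-binding protein, at 83.8 ± 54.4 against 16.5 ± 3.95 TPM (log2 fold change 2.03, limma adjusted p = 0.0332), and Hbegf, a ligand of the epidermal growth factor receptor, at 26.2 ± 6.04 against 9.89 ± 8.46 TPM (1.55, adjusted p = 0.0384). Rbm27 was not called without Neomycin-IP replicate 2, 3 or 5 or PBS-IP replicate 1, 2 or 4. Hbegf overlapped between the groups: PBS-IP replicate 3 was at 22.4 TPM and Neomycin-IP replicate 6 at 16 TPM, and it was called in 2 of 10 fits that left out 1 library, those without Neomycin-IP replicate 6 or PBS-IP replicate 3. Dusp6, a phosphatase that ends ERK signalling, was at 52.1, 59.2, 68.5, 54.1, 36.5 and 49.6 TPM against 24.3, 25.2, 23.2 and 22.7 TPM. Controls were tightly grouped and the fold change was 1.10 (SE 0.26, limma adjusted p = 0.0149), and the call was lost without Neomycin-IP replicate 3 or PBS-IP replicate 2 or 4.

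Il18bp, a secreted inhibitor of interleukin 18, rose by 1.48, from 6.0 ± 1.68 to 20.2 ± 10.3 TPM, with Neomycin-IP replicate 5 (7.38 TPM) below PBS-IP replicate 1 (8.15 TPM). It was not called without Neomycin-IP replicate 3 or 4 or PBS-IP replicate 2, 3 or 4. Cmtr1, which methylates the cap of mRNA, was at 91.3, 51.0, 85.1, 63.7, 53.5 and 90.0 TPM against 34.6, 26.2, 31.8 and 19.9 TPM, and the groups did not overlap (1.32, SE 0.26, limma adjusted p = 0.000998). Trim56, a ubiquitin ligase of antiviral signalling, rose by 0.79 (adjusted p = 0.00447) and lost its call without PBS-IP replicate 2. C2 (complement component 2, 1.45) and Rnf225 (1.35), named here after their values were seen because their levels fell under the naming rule, also rose. Of the 34, Cmtr1, C2, Rnf225, Tmem184b and Phc2 (the last also named after its value was seen) kept their call in each of the 10 fits that left out 1 library. After rescaling without the mitochondrial genome 14 of the 34 were called, and after quantile normalization 9. Without the 12 appended libraries, PBS-IP replicates 3 and 4 among them, 8 of the 34 were called. Cmtr1 (limma adjusted p = 0.104), C2 (0.147) and Phc2 (0.081) were not called there, and Phc2 also lost its call after either scaling. Rnf225 and Tmem184b kept their call in all of these settings, but neither was called when the 10 libraries were fitted alone. In that fit 1 of the 34 was called, Dusp6. Dusp6 was not called after quantile normalization (limma adjusted p = 0.067) or without the appended libraries (0.279).

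The other risers named by the rule were U2surp, a splicing factor (1.38), B4galt5, a glycosyltransferase (0.98), Dennd2b (0.87), Hspbp1, a partner of Hsp70 (0.85), Sh3bp5l (0.80), Cmip (0.79), Mafk, a small Maf transcription factor (0.74), Tmem184b (0.72) and Calr, the endoplasmic reticulum chaperone calreticulin (0.68). Tmem184b kept its call in each of the 10 fits that left out 1 library. Hspbp1 was called in 1 of them (without PBS-IP replicate 2) and B4galt5 in 2 (without Neomycin-IP replicate 5 or PBS-IP replicate 3). Mafk lost its call without Neomycin-IP replicate 1 or 3 or PBS-IP replicate 1, 2 or 4, and Sh3bp5l without Neomycin-IP replicate 4 or PBS-IP replicate 1 or 3. U2surp lost its call without Neomycin-IP replicate 2 or PBS-IP replicate 2, Cmip without PBS-IP replicate 1 or 2, and Dennd2b without PBS-IP replicate 1. For Calr every treated library, at 442 to 606 TPM, exceeded every control, at 273 to 386 TPM. The unfolded protein and amino acid stress list to which chaperones of this compartment belong had 25 genes in 26 rows of the table, 0 of them called, and a median of 0.20. The call of Calr was kept in 3 of the 10 fits that left out 1 library, those without Neomycin-IP replicate 5 or 6 or PBS-IP replicate 4.

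Coq10b, a coenzyme Q binding protein of mitochondria that is on the clock list, was the only gene with mean TPM at or above the median of tested genes among the 5 that fell. It was at 39.8, 30.0, 36.7, 32.1, 31.9 and 46.1 TPM against 85.8, 54.1, 44.0 and 60.9 TPM, with 5 of the 6 treated libraries below the lowest control. The fold change was -0.72 (SE 0.17, limma adjusted p = 0.0123), and the call was lost without PBS-IP replicate 1 or 4. The other 4 that fell were at low levels, with Htra4 at 0.359 ± 0.240 against 1.38 ± 0.783 TPM, and 3 predicted gene models. Htra4 is named after its value was seen.

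In the fit of all groups no other gene on the clock list was called. Of its 23 genes 7 did not overlap between the groups, 2 higher and 5 lower, against 1.77% and 0.193% of all genes. The list was drawn up with earlier results of these data known, so these shares are a description and not a test. It holds more than established clock components, and Coq10b and Leo1 are among the other members. Fitted on the 10 libraries alone, 1 gene of the list was called lower, which was not Coq10b. With array weights 4 genes of the list were called higher and 7 lower. Dbp, a clock output factor, was at 63.4, 84.3, 68.5, 77.4, 87.2 and 108 TPM against 248, 238, 149 and 266 TPM. All 6 treated libraries were below all 4 controls, with a fold change of -1.44 (SE 0.50, limma adjusted p = 0.297). Ciart, a repressor of the clock, was at 7.32 ± 2.55 against 21.8 ± 8.06 TPM (fold change -1.44, adjusted p = 0.123), and Npas2, an activator, was at 23.5 ± 6.88 against 8.30 ± 1.67 TPM (1.37, adjusted p = 0.0777). Tef, Nr1d2 and Usp2 were the others lower in every treated library, and Leo1 the other higher (Usp2 and Leo1 named after their values were seen). Between Neomycin-IP and the mean of ampicillin, metronidazole and vancomycin IP, 0 genes of the clock list were called in either direction. The median difference of the list was 0.10 there, beside 0.00 for all tested genes. The clock time of collection is not given in the sources used here, so its part in these values was not tested.

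**Figure D4:**
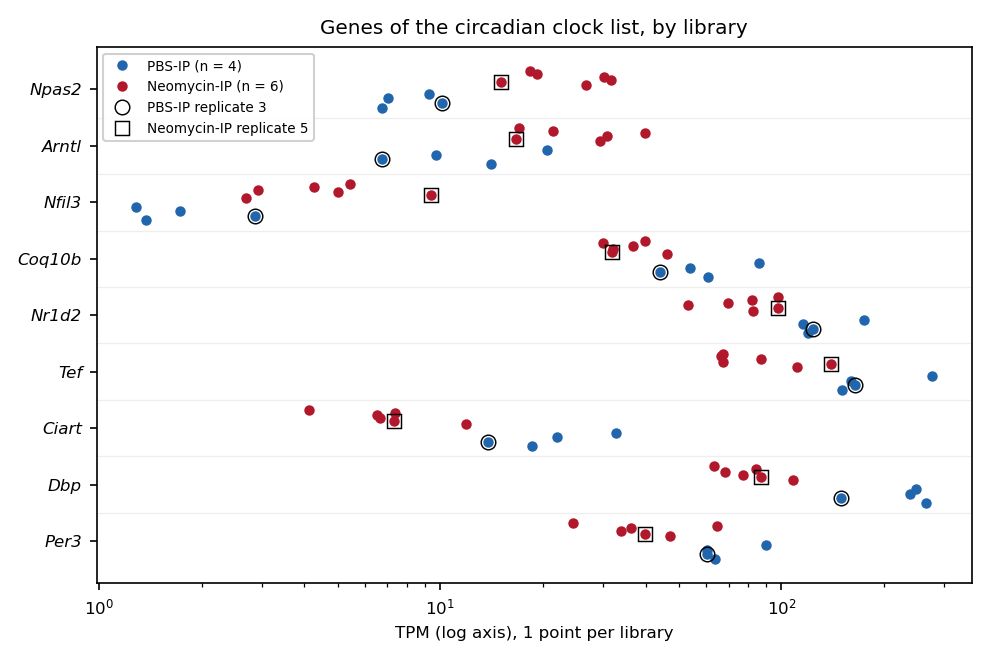
TPM on a log axis, 1 point per library, for 9 genes of the circadian clock list. Dbp and Ciart lie lower in all 6 Neomycin-IP libraries, and Npas2 lies higher, while Arntl and Per3 overlap.

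Among the 170 uncalled genes on no interferon list that were higher at an unadjusted p under 0.05 without overlap, and 20 that were lower, the rule named up to 6 of each, some of them clock genes given above. E2f2, a cell cycle factor, was at 18.9 ± 4.05 against 7.14 ± 3.21 TPM (fold change 1.33, limma adjusted p = 0.0955), and Trib1, a pseudokinase, at 99.2 ± 44.2 against 39 ± 1.31 TPM (1.19, adjusted p = 0.105). H2ac24, a histone gene, Spats2l and Tprn had fold changes of 1.41, 1.15 and 1.07 with adjusted p above 0.6. In the other direction Rpgrip1l, a protein of the primary cilium, was at 5.6 ± 3.96 against 22 ± 6.71 TPM (-1.96, adjusted p = 0.167), and Mpc1, which carries pyruvate into mitochondria, at 74.9 ± 10.7 against 109 ± 8.05 TPM (-0.54, adjusted p = 0.398).

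The route was then compared. The values for IP, IV and PO come from separate controls, each of the same route. Over all 205 tested interferon-list genes the median fold change was 0.85 with neomycin IP, 0.90 with neomycin IV and 0.20 with neomycin PO. Over the 64 risers, which were chosen by their rise with IP, the IV median was 1.68 and the PO median 0.30, given as a description. Against its own controls IV neomycin raised 93 genes (0.544% of those tested) and PO neomycin 3 (0.0176%). In the test of the difference itself 11 genes (0.0644% of those tested) rose more by IP than by PO and 0 rose less, all 11 on an interferon list. With the compared groups fitted alone 0 genes differed, and with array weights 61 rose more and 24 less. The largest differences in the fold changes were for Ifi44 (3.13), Ifi27l2a (2.93), Ifit3b (2.61) and Ifit3 (2.48). Ifi44 was at 6.51 TPM on average after oral neomycin and 3.39 TPM after oral PBS. The count was 7 without Neomycin-IP replicate 1, 5 without PBS-IP replicate 2 and 2 without PBS-IP replicate 4. Cell type markers also differed by route. The B cell list had a median fold change of 1.83 and MHC class II 1.21 with neomycin PO, where summed B cell transcripts ran from 62.7 to 3123 TPM against 27.4 to 176 TPM in PBS-PO. With neomycin IV the B cell list was at -1.10 and surface colonocytes at 1.12. Their part in the differences between routes was not tested. No gene differed between IP and IV by the limma test (0 called, 172 at an unadjusted p under 0.05). Ifi44 had a fold change of 3.70 (SE 0.45) by IP and 3.72 (SE 0.44) by IV, and Ifi27l2a 3.30 (SE 0.34) and 2.27 (SE 0.34).

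Neomycin-IP was last compared with the mean of ampicillin, metronidazole and vancomycin IP, which uses no PBS-IP library. Cell type markers differed in this comparison too. Median differences were -1.10 for smooth muscle, -0.98 for enteric neurons and glia, -0.74 for interstitial cells of Cajal, 1.02 for goblet cells and 0.91 for surface colonocytes, against 0.00 for all tested genes. Summed smooth muscle transcripts had a median of 16329 TPM (12018 to 63294) in Neomycin-IP, 20503 (7197 to 86129) with ampicillin, 34693 (20662 to 85459) with metronidazole and 79029 (61563 to 104509) with vancomycin. Apart from a fit with muscle and distal scores as covariates, given below, their part in the calls was not tested. Of the genes tested 184 were higher (1.08%) and 12 lower (0.0702%), and 114 of the 184 stand on an interferon list. At an unadjusted p under 0.05 the balance was the other way, with 1336 higher and 1634 lower. Without the muscle-rich Neomycin-IP replicate 5 there were 253 higher and 85 lower, and with array weights 1797 higher and 3242 lower. With muscle and distal scores as covariates 177 were higher, 116 of them on an interferon list, and 11 were lower. Of these 188 genes 157 were also called without the covariates. Ifi44, at 48.7 TPM on average in Neomycin-IP, was at 1.13, 2.34 and 2.18 TPM in the ampicillin, metronidazole and vancomycin groups. All 205 tested interferon-list genes had a median of 1.0 against these antibiotics. The 64 risers had a median of 2.0 and the 34 others 0.34.

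Il18bp (1.68), B4galt5 (1.02), Cmtr1 (0.90), Trim56 (0.58) and, named after their values were seen, C2 (1.54), Rnf225 (1.61), Ankfy1 (0.46) and Arel1 (0.39) were higher with neomycin than with the other 3 antibiotics. For Mafk (0.03), Cmip (0.11), Sh3bp5l (0.11) and Dennd2b (0.18) the difference was small and not called. Mafk averaged 99.0 TPM in Neomycin-IP and 107, 71.1 and 121 TPM in the ampicillin, metronidazole and vancomycin groups, against 60.0 TPM in PBS-IP. Coq10b, lower than in PBS-IP, was at 31.5, 37.0 and 32.3 TPM in those groups against 36.1 TPM in Neomycin-IP.

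**Figure D5:**
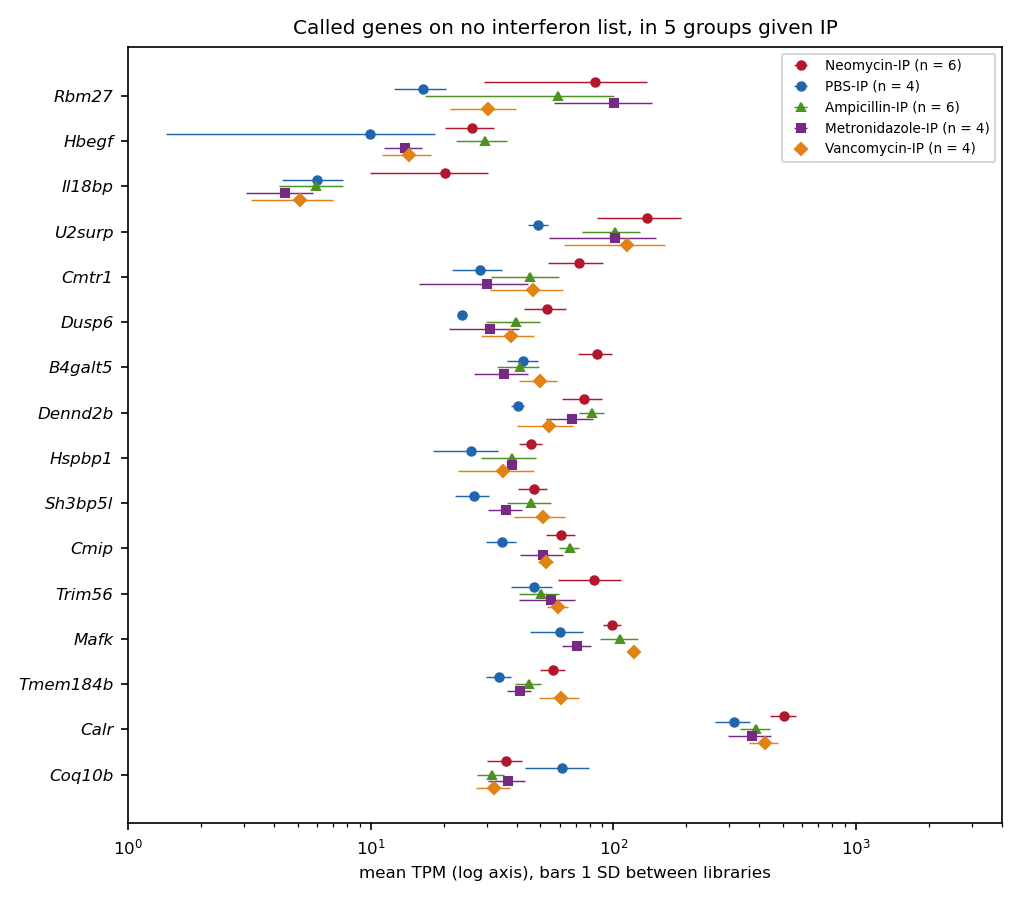
Mean TPM on a log axis, with bars of 1 SD between libraries, in 5 groups given IP for 16 genes that were called and are on no interferon list. Il18bp and B4galt5 have Neomycin-IP (red) above all other groups, whereas for Mafk and Coq10b 1 or more of the other antibiotics lie with Neomycin-IP and PBS-IP lies apart.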

How the data were processed

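The authors deposited TPM values per gene for 97 libraries, made before deposit with Trim Galore 0.6.2, cutadapt 3.5 and Salmon (version not given) on GRCm39, per the submitters' processing notes. Libraries came from 1000 ng RNA by poly(A) selection, and reads were single-end with 75 cycles, per the labels' protocols. Whether strand was kept is not stated, so overlapping genes may share signal. TPM keep no depth, so no depth or counting error can be given.

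Values entered the tests as log2(TPM + 1), unscaled. One limma 3.58.1 model (trend, robust; R 4.3.3) held all 18 groups, which share one estimate of spread. Benjamini-Hochberg adjustment covered the 17083 tested genes. Groups came from the labels. No 2 libraries of these groups were identical.

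The comparison, gene lists and naming rule were chosen with earlier results of these data known. The rule took the 12 largest rises and up to 10 falls among called genes with a group mean at or above the median of tested genes (17.3 TPM), up to 15 rises and 10 falls on no interferon list, up to 4 called and 2 uncalled members of each of 57 lists, up to 6 uncalled genes each way whose groups did not overlap, and up to 6 from each other comparison. The 3562 predicted, unnamed, pseudogene and antigen receptor models were left out. GENCODE M21 on GRCm38 gave gene types for 20398 of 20457 genes, and RefSeq on GRCm38.p6 gave promoters. Results were recomputed with 10 as pseudocount, without the filter, after quantile normalization, with TPM rescaled without the mitochondrial genome, with array weights, with the compared groups alone, with muscle and distal scores as covariates, with a replicate block, without the appended libraries and with each library left out. A fit of the IP groups alone was chosen after seeing the data. Results for 2 listed genes are not reported here.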

Additional observations from a re-analysis of the deposited data

Results flagged for a closer look

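Among 68 groups of values checked for a library that stands apart from the rest of its group, 7 held one. Chance would give about 1 in 20 if the groups of values were independent. The same libraries recur across them, so the count is a description and not a test. Neomycin-IP replicate 5 stood apart in its smooth muscle score (10.9) and in Apol9b, where its 38.4 TPM was the lowest of the group. Neomycin-IP replicate 1 (1.82) and PBS-IP replicate 3 (1.92) stood apart in the distal score, the mean log2(TPM + 1) of 7 posterior Hox genes. Neomycin-IP replicate 2 stood apart in the B cell score (5.96). PBS-IP replicate 1 was the lowest control in Ifi27l2a (6.74 TPM), and Neomycin-IP replicate 1 the highest treated library in Trim56 (131 TPM).

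The neomycin effect differed between IP and PO, by the test of the difference itself, for 11 genes. The difference in log2 fold change was 3.13 for Ifi44, 2.93 for Ifi27l2a, 2.61 for Ifit3b, 2.48 for Ifit3, 2.35 for Mx2, 2.23 for Gm12250, 1.74 for Slfn5, 1.41 for Irgm2, 1.36 for Znfx1, 1.32 for Dtx3l and 1.00 for Ube2l6. Mx2, Gm12250, Slfn5, Znfx1 and Ube2l6 are named here after their values were seen.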

How the results depend on the processing

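The 103 genes of Neomycin-IP against PBS-IP became 1140 with array weights (782 higher, 358 lower), 274 with muscle and distal scores as covariates, 58 without the appended libraries and 13 when the compared groups were fitted alone. Leaving out 1 library gave 51 to 116, with 67, 53 and 51 when PBS-IP replicate 1, 2 or 4 was left out. The other settings gave 69 to 110. The 11 genes that differed between IP and PO became 22 with a pseudocount of 10, 85 with array weights (61 higher, 24 lower), 31 with the covariates and 0 with the compared groups alone, and 2 to 16 with 1 library left out (7 without Neomycin-IP replicate 1, 5 without PBS-IP replicate 2, 2 without PBS-IP replicate 4). The 196 genes against the other IP antibiotics became 5039 with array weights (1797 higher, 3242 lower) and 125 without the appended libraries, and 140 to 338 with 1 library left out (338 without Neomycin-IP replicate 5). For IP against IV 0 genes were called in every setting run. The cause was not tested. Of the 64 interferon-list risers 35 were called in each fit that left out 1 library and 10 in every alternative, against 5 and 0 of the other 34 and 0 of the 5 that fell. With the replicate block 102 genes were called, 11 for IP minus PO, 0 for IP minus IV and 195 against the other IP antibiotics. Deviations of same-numbered Neomycin-IP and PBS-IP libraries correlated at -0.30, -0.07, -0.35 and 0.16. So few values cannot decide whether replicate numbers pair the samples. Without depth, no counting error bounds low values.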
